A study of Homo sapiens with 6 samples.

Results

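The 10 genes described here encode the Fos and Jun proteins of the transcription factor AP-1 and the companions that are switched on with them: FOS, FOSB, FOSL1, JUN, JUNB, JUND, EGR1, EGR3, ATF3 and IER3. They were chosen by name, as the rows whose gene identifier is one of these symbols, and make up 10 of 20026 rows in the expression files. All 10 had enough signal to be tested, EGR3 through 4 of the 6 libraries, those of the TEAD4 lines. RNA sequencing was done in stable lines of HCT116, a human colon carcinoma cell line. TEAD4 is a DNA-binding factor that brings YAP1 and TAZ, the coactivators held in check by the Hippo pathway, to their target genes. One line expressed the mutant TEAD4 K178R, by the usual notation with arginine in the place of a lysine, one expressed wild type TEAD4, and one was a control. Each line gave 2 libraries from total RNA, and the question posed is how the wild type protein and its mutant alter the messenger RNA profile.

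The vector, the promoter driving TEAD4, and whether a line is a clone or a pool of cells are details not given in the sources used here. Control titles carry the letters PQ, which the labels do not explain. Wild type replicate 2 is titled as wild type TEAD4, but its genotype entry reads TEAD5, so the main counts are also given without it. No label states that the libraries of a line are separate cultures. The p-values therefore reflect how far these libraries lie apart, a spread that may be technical. Each group is its own stable line, so an effect of the TEAD4 protein cannot be told apart from other differences between lines.

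AP-1 is a dimer that binds DNA through a basic leucine zipper. Fos proteins need a Jun partner, while Jun proteins can also pair with one another or with ATF proteins. FOS, FOSB, JUN, JUNB, EGR1, EGR3, ATF3 and IER3 are immediate early genes. Growth factors and stress induce them within minutes through MAP kinases, without new protein synthesis, and their transcripts are short-lived. In epithelial cancer cells AP-1 and TEAD factors are often found on the same enhancers.

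Expression is given in FPKM, a measure of fragments that is scaled to transcript length and to library size, so levels can be set side by side between genes. The FPKM values of a library summed to between 283195 and 305329, and the number of reads behind them is unknown. TEAD4 itself had 71.2 and 72.3 FPKM in the K178R libraries and 86.4 and 84.4 FPKM in the wild type libraries. The control libraries had 16.6 and 17.5 FPKM, so both TEAD4 lines stood above control. TEAD4 was lower in the K178R line than in the wild type line (log2 -0.25), and the part of this in the results was not tested. Pearson's r of log2(FPKM + 1) over 9952 genes was 0.998 within each line and between 0.987 and 0.992 across lines, and genes are not independent replicates. The epithelial marker EPCAM was at 152 ± 0.385, 147 ± 0.884 and 152 ± 0.494 FPKM in K178R, wild type and control (SD, n = 2 each), while the colon markers CDX1 and CEACAM5 were listed at 0 in all 6 libraries. Summed over 9 colon epithelium markers, the level was 2851 to 2884 FPKM in K178R, 1796 to 1850 FPKM in wild type and 2634 to 2681 FPKM in control. The lower sum in wild type lay mostly in the keratin genes KRT8 and KRT18. Mean KRT8 was 1381, 770 and 1298 FPKM in K178R, wild type and control, and mean KRT18 was 890, 457 and 691 FPKM. CDX2 went the other way, with means of 3.21, 4.15 and 3.29 FPKM, so the sum does not describe the markers as a set. In these bulk libraries a smaller number of cells of a type and less RNA per cell cannot be told apart.

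IER3 was the most abundant of the 10 in every library, with a mean level above that of 97.6% of the 11445 genes tested. FOSL1, JUND and JUNB followed at about the same height, at the 89.4th, 88.2nd and 87.1st percentile. EGR1 stood in the middle, ATF3 and JUN below it, and FOS, FOSB and EGR3 were scarce, at the 21.5th, 11.2nd and 2.22nd percentile. The Fos family gene with the most RNA in these cells was FOSL1 and not FOS itself.

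**Figure D1:**
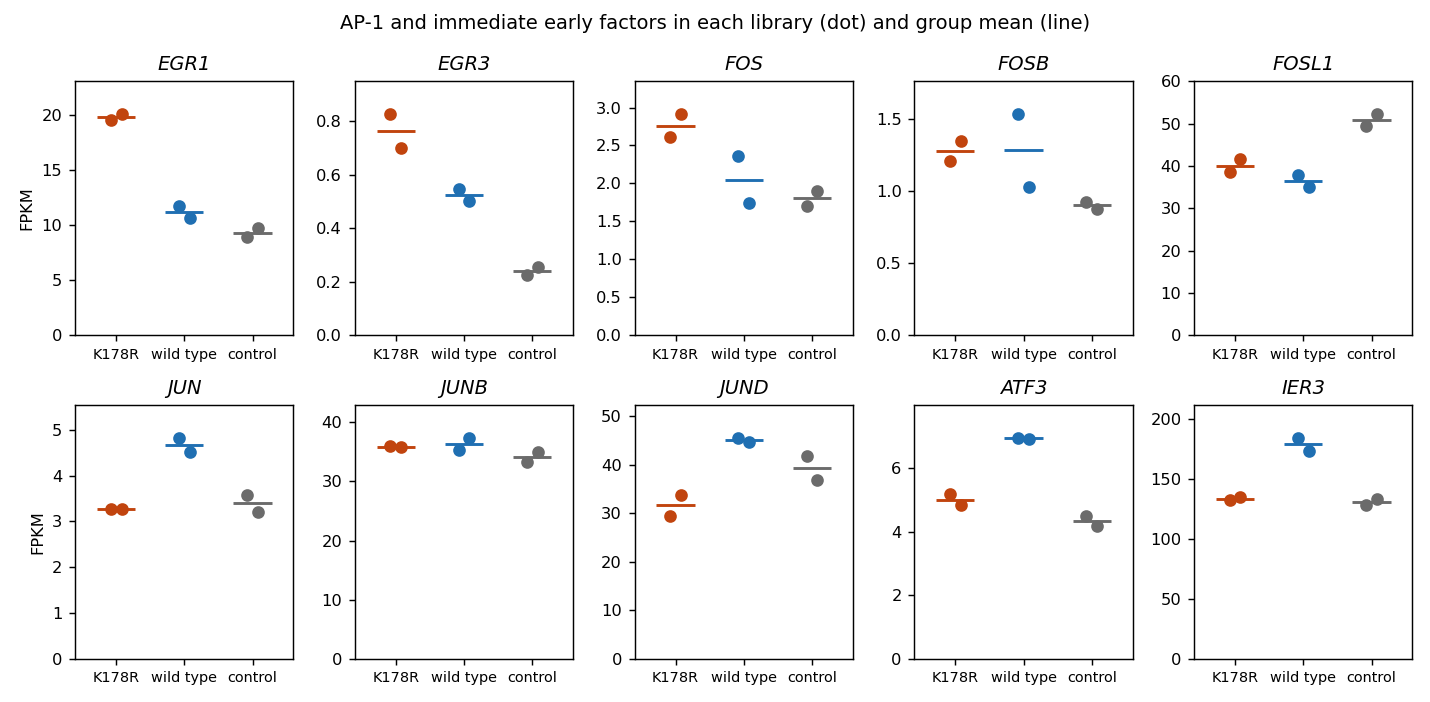
FPKM of the 10 factors, 1 panel per gene with its own axis from 0, in the K178R, wild type and control lines. Dots are libraries and lines are means of 2 libraries; the K178R dots of EGR1 stand near 20 FPKM, above all other libraries, whereas the wild type dots of JUN, ATF3 and IER3 stand above those of the other lines.

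Set against wild type TEAD4, the K178R line had 3 of the 10 genes higher (FOS, EGR1 and EGR3) and 4 lower (JUN, JUND, ATF3 and IER3). A gene was called when limma's test on log2(FPKM + 1), adjusted by Benjamini-Hochberg over all 11445 genes, gave p under 0.05. Of all genes tested, 10.4% were called higher in this comparison and 34.5% lower, so the share of members called lower was near that of all genes. The median log2 change of the 10 was -0.006, and that of all genes was -0.0838. In 8 of the 10 the K178R and wild type libraries did not overlap, as was so for 74.2% of all genes. Without wild type replicate 2, 1 member was called higher (EGR1) and 4 lower, and the count of higher members was also 1 without K178R replicate 2 or without either control library.

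Wild type TEAD4 against control gave 5 members higher (JUN, EGR1, EGR3, ATF3 and IER3) and 1 lower (FOSL1), while 37.6% of all genes were called higher and 12.2% lower. The median log2 change was 0.249 over the members and 0.0926 over all genes. In 9 of 10 the libraries of both lines did not overlap, against 76.8% of all genes. Without wild type replicate 2 the counts were 6 higher, FOSB being the addition, and 1 lower.

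K178R against control gave 3 members higher (FOS, EGR1 and EGR3) and 2 lower (FOSL1 and JUND), with 11.7% of all genes called higher and 11.1% lower. The median log2 change was 0.12 over the members and 0.00246 over all genes, and 8 of 10 did not overlap, against 63.1% of all genes. The 2 lower members became 1, FOSL1, without K178R replicate 1 or without control replicate 1. All comparisons draw on the same 6 libraries and are not independent of each other.

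How genes divide into higher and lower depended on the scaling of the libraries. With median-of-ratios scaling, K178R against wild type had 2171 genes higher and 2598 lower, instead of 1187 and 3952, and wild type against control had 2943 higher and 2416 lower, instead of 4309 and 1402. Upper-quartile scaling gave 2263 and 2520 in the first of these comparisons and 2765 and 2652 in the other. Among the members the direction turned under these scalings in JUNB, which was not called under any of them.

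**Figure D2:**
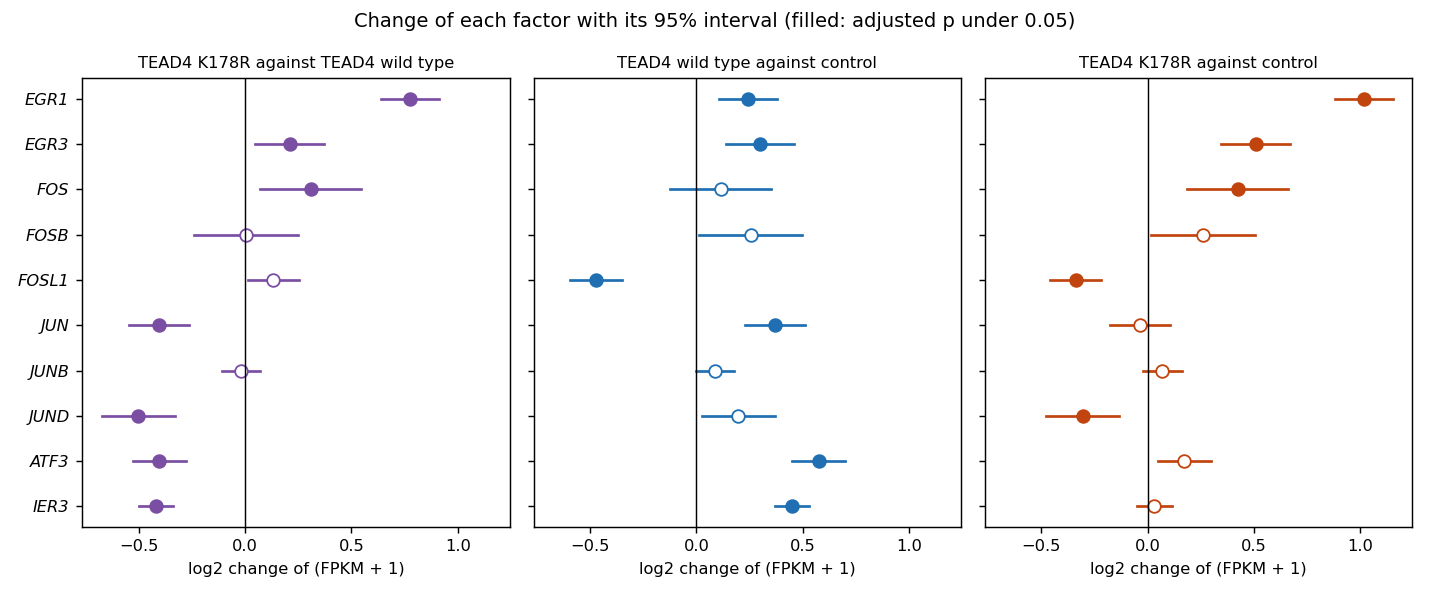
Log2 change of FPKM + 1 for each of the 10 factors (points) with 95% intervals from limma (lines), in 3 comparisons with a common axis; filled points passed adjusted p under 0.05. On this scale EGR1 has the largest rise in the comparisons of K178R with wild type (0.77) and with control (1.02), and FOSL1 is the only gene of the 10 called lower in wild type TEAD4 against control (-0.47).

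EGR1, a zinc finger factor that growth factor signalling induces through the ERK kinases, had the largest change of the 10 with the mutant on the log2(FPKM + 1) scale. That scale understates low genes, and against control EGR3 rose more than EGR1 on mean FPKM and with a pseudocount of 0.1. It had 19.5 and 20.04 FPKM in the K178R libraries, 11.7 and 10.6 FPKM in the wild type libraries, and 8.88 and 9.68 FPKM in the control libraries. The K178R libraries lay well above the rest, and wild type lay a little above control without overlap. EGR1 was 1.77 times as high in K178R as in wild type on mean FPKM (log2 0.77, SE 0.06, adjusted p = 1.5e-04), which put it at rank 18 of 11445 genes by log2 change. Against control it rose 2.13-fold with K178R (log2 1.02, adjusted p = 3.4e-05; rank 38). The smaller rise with wild type TEAD4 (log2 0.24, adjusted p = 0.0111) was no longer called after median-of-ratios or upper-quartile scaling (adjusted p = 0.0564 and 0.0734), without wild type replicate 1 (adjusted p = 0.0586) or without control replicate 1 (adjusted p = 0.0681).

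The EGR1 promoter is shown because EGR1 had the largest change of the 10 on the log2(FPKM + 1) scale and because the letters of the serum response element, the site of serum response factor, lie close to its start. Promoter windows of 250 bases before the transcription start were read from the RefSeq table of GRCh38.p14, which held an entry for 7 of the 10 genes. The window runs 5′ to 3′ on the plus strand of chromosome 5, at chr5:138465229-138465478, with matches to the serum response element in capitals.
EGR1 promoter: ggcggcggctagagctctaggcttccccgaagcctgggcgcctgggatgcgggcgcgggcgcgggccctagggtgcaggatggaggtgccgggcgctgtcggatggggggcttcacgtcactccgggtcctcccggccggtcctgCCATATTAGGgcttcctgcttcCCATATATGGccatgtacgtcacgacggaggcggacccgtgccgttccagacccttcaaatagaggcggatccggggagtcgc
The matches begin 105 and 83 bases before the start. On either strand, 1.16% of 35116 promoter windows held this element. The windows of the other 6 genes (FOS, FOSB, JUN, JUNB, JUND and ATF3) held none within these 250 bases. Only the first window listed for a gene was read, so other starts and bases further upstream were not searched.

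EGR3, a relative of EGR1 that binds the same kind of GC-rich site, had the lowest level of the 10. Its values were 0.827 and 0.699 FPKM in K178R, 0.546 and 0.502 FPKM in wild type and 0.225 and 0.253 FPKM in control. No library of one line overlapped those of another. It rose with K178R (log2 0.51, adjusted p = 0.00237) and with wild type TEAD4 (log2 0.30, adjusted p = 0.0097) against control, where mean FPKM was 3.19 and 2.19 times that of control. Only the 4 libraries of the TEAD4 lines reached the 0.5 FPKM needed for testing, so a rise against control is partly built into its being tested. The difference of K178R from wild type (log2 0.21, adjusted p = 0.0419) was not called in 10 of 15 alternative analyses, with adjusted p up to 0.196, and the rise with wild type missed the threshold without control replicate 1 (adjusted p = 0.0519). EGR3 overlaps an RNA on the opposite strand by 164 exonic bases in GENCODE release 29, and whether counting used strand is not given in the sources used here.

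Summed over EGR1 to EGR4, the EGR family reached 21.1 ± 0.466 FPKM in K178R, 12.5 ± 0.567 FPKM in wild type and 10.2 ± 0.357 FPKM in control (SD, n = 2 each). EGR1 supplied 93.8%, 89.0% and 91.2% of that sum in the same order of lines. NAB1 and NAB2, corepressors that bind EGR proteins and dampen them, were both higher with wild type TEAD4 than in control, NAB1 by log2 0.51 (10.4 ± 0.602 against 7.06 ± 0.499 FPKM) and NAB2 by log2 0.17. NAB2 was called in neither comparison of K178R, and its call with wild type ended after either scaling, without wild type replicate 2 or without control replicate 2. In K178R cells NAB1 had 9.08 ± 0.325 FPKM. It was higher than in control (log2 0.32, adjusted p = 0.00896; not called without K178R replicate 1 or control replicate 2) and lower than in wild type (log2 -0.18, adjusted p = 0.0417; not called after either scaling, without the filter, without limma's trend, without wild type replicate 1 or without either K178R library).

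FOS, the founding Fos protein and partner of JUN, was scarce. It had 2.61 and 2.91 FPKM in K178R, 2.36 and 1.74 FPKM in wild type, and 1.71 and 1.90 FPKM in control. The K178R libraries were the highest, while wild type and control overlapped. FOS was higher in K178R than in control (log2 0.42, SE 0.10, adjusted p = 0.0236) and than in wild type (log2 0.31, SE 0.10, adjusted p = 0.0413). The difference from wild type was not called in 10 of 16 alternatives and that from control in 6 of 16, with adjusted p up to 0.191 and 0.125. Wild type against control gave log2 0.11 (95% interval -0.12 to 0.35, adjusted p = 0.377).

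FOSB, another Fos protein induced with FOS, was called in no comparison. Its levels were 1.21 and 1.34 FPKM in K178R, 1.53 and 1.03 FPKM in wild type, and 0.924 and 0.874 FPKM in control. The wild type libraries lay on both sides of those of K178R, and both control libraries were below all others. The log2 change was 0.01 for K178R against wild type (95% interval -0.24 to 0.25), 0.25 for wild type against control (adjusted p = 0.0777) and 0.26 for K178R against control (adjusted p = 0.118). Without wild type replicate 2, FOSB passed the threshold in wild type against control (log2 0.41, adjusted p = 0.00913). K178R against control passed without either wild type library (adjusted p = 0.0364 and 0.0357) and with only those lines fitted (adjusted p = 0.0361).

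FOSL1, which encodes FRA1, a Fos protein whose product ERK signalling stabilises, moved the other way. It stood at 38.5 and 41.6 FPKM in K178R and at 37.8 and 34.99 FPKM in wild type, against 49.5 and 52.2 FPKM in control. Both control libraries exceeded all 4 TEAD4 libraries. FOSL1 fell by 0.47 on the log2 scale with wild type TEAD4 (SE 0.05, adjusted p = 4.0e-04) and by 0.34 with K178R (SE 0.05, adjusted p = 0.00401), and both calls held in all 16 alternatives. K178R against wild type gave log2 0.13 (95% interval 0.01 to 0.26, adjusted p = 0.0702), which passed in 4 of 16 alternatives: under median-of-ratios and under upper-quartile scaling (adjusted p = 0.0134 and 0.0112), without wild type replicate 1 (adjusted p = 0.0445) and without K178R replicate 1 (adjusted p = 0.0473).

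Because FOSL1 held most of the family's RNA, the Fos family sum followed it. FOS, FOSB, FOSL1 and FOSL2 together gave 48.3 ± 2.58 FPKM in K178R, 45.4 ± 2.93 FPKM in wild type and 59.2 ± 1.92 FPKM in control (SD, n = 2 each). FOSL1 made up 82.9 ± 0.110%, 80.1 ± 0.860% and 85.9 ± 0.498% of the sum, and FOS 5.71 ± 0.145%, 4.48 ± 0.676% and 3.04 ± 0.130%. The ratio of FOSL1 to FOS was 14.8 and 14.3 in K178R, 16.01 and 20.1 in wild type, and 29.01 and 27.5 in control. In every TEAD4 library this ratio was below both control libraries.

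JUN, the founding Jun protein, was highest in the wild type line. It had 3.28 FPKM in both K178R libraries, 4.83 and 4.51 FPKM in wild type, and 3.57 and 3.21 FPKM in control. The wild type libraries were above all others and the K178R values lay within the control range. JUN rose with wild type TEAD4 against control (log2 0.37, SE 0.06, adjusted p = 0.00214), and K178R was lower than wild type (log2 -0.40, SE 0.06, adjusted p = 0.00185). Both calls held in all 16 alternatives. K178R against control gave log2 -0.04 (95% interval -0.18 to 0.10, adjusted p = 0.707).

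JUNB, the Jun protein that competes with JUN for Fos partners, was called in no comparison. Its level was 35.95 and 35.8 FPKM in K178R, 35.3 and 37.4 FPKM in wild type, and 33.3 and 34.97 FPKM in control. Both TEAD4 lines lay slightly above the control libraries, and K178R lay within the wild type range. K178R against wild type gave log2 -0.02 (95% interval -0.11 to 0.07), with a positive sign after either scaling or without wild type replicate 2. JUNB shares 259 exonic bases with HOOK2 on the opposite strand, at 4.001 ± 0.0828 FPKM in K178R, 5.55 ± 0.549 FPKM in wild type and 4.52 ± 0.529 FPKM in control.

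JUND, the Jun protein that is present in resting cells too, was lowest with the mutant. It had 29.4 and 33.8 FPKM in K178R, 45.5 and 44.6 FPKM in wild type, and 41.7 and 36.8 FPKM in control. The lines did not overlap, with wild type highest and K178R lowest. K178R fell below wild type by 0.50 on the log2 scale (SE 0.07, adjusted p = 0.00174), a call that held in all 16 alternatives. Against control, K178R gave log2 -0.31 (adjusted p = 0.0240). That call ended without the filter on low values (adjusted p = 0.0912), with the control libraries averaged (0.0574), without limma's trend (0.0528), without control replicate 1 (0.128) and without K178R replicate 1 (0.106). Wild type against control gave log2 0.20 (adjusted p = 0.0591), and passed in 4 of 16 alternatives: with only those lines fitted (adjusted p = 0.0315), without control replicate 1 (adjusted p = 0.0309) and without either K178R library (adjusted p = 0.0314 and 0.0315).

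The JUND promoter is shown because it was the only one of the 7 windows with the letters TGACGTCA, the cAMP response element bound by CREB and ATF proteins and by Jun-ATF dimers. It lies on the minus strand of chromosome 19, at chr19:18281623-18281872 of GRCh38.p14, and is printed 5′ to 3′ with the match in capitals.
JUND promoter: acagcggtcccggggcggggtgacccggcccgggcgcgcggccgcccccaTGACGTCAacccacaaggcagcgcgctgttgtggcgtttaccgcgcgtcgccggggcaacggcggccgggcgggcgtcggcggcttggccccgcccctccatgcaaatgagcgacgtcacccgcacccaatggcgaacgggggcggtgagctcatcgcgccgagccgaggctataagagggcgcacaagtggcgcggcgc
The match begins 200 bases before the start, and 1.65% of the 35116 windows held these letters on either strand. None of the 7 windows held the letters TGANTCA, used for the AP-1 site, or GGAATG, used for the TEAD site. These were found in 6.57% and 11.9% of all windows. Only the stated letters were searched, so other forms, such as the TGACATCA in the JUN and ATF3 windows, were not counted. A match is a description of the sequence only.

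The Jun family sum was 70.7 ± 2.93 FPKM in K178R, 86.1 ± 0.651 FPKM in wild type and 76.8 ± 2.58 FPKM in control (SD, n = 2 each). JUND made up 44.6 ± 2.48%, 52.4 ± 1.10% and 51.1 ± 2.81% of it, while JUNB made up 50.7 ± 2.29%, 42.2 ± 1.40% and 44.5 ± 2.99%. The Fos sum divided by the Jun sum was 0.677 and 0.688 in K178R, 0.555 and 0.501 in wild type, and 0.736 and 0.808 in control. The wild type line had the lowest ratio in both libraries.

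**Figure D3:**
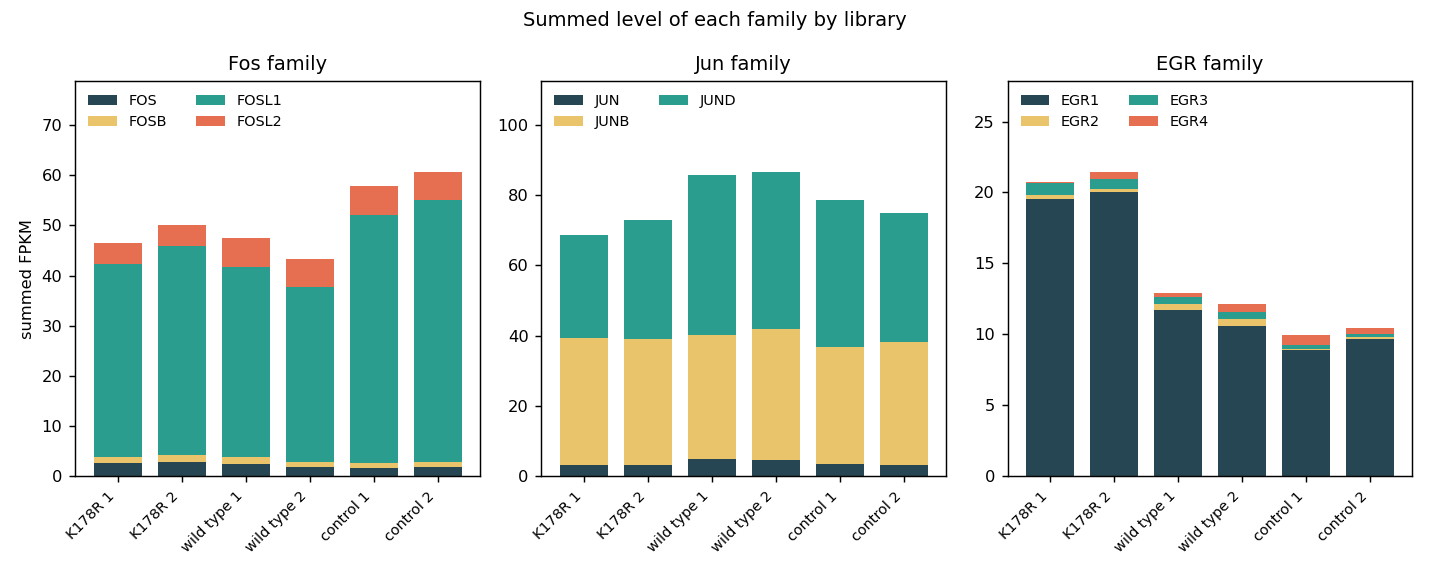
Summed FPKM (vertical axis, from 0) of the Fos, Jun and EGR families in each of the 6 libraries, with the share of each gene stacked. FOSL1 fills most of the Fos bars, JUNB and JUND nearly all of the Jun bars, and the EGR bars of the K178R libraries are the tallest of their panel, at 21.1 ± 0.466 FPKM (SD, n = 2).

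ATF3 and IER3, like JUN, were highest in the wild type line. ATF3, a stress-induced partner of Jun proteins that often represses its targets, had 5.17 and 4.83 FPKM in K178R, 6.95 and 6.92 FPKM in wild type, and 4.48 and 4.17 FPKM in control. Wild type was highest, and K178R lay above control without overlap. ATF3 rose with wild type TEAD4 (log2 0.58, SE 0.05, adjusted p = 1.9e-04), and K178R was lower than wild type (log2 -0.40, SE 0.05, adjusted p = 0.00113). K178R against control gave log2 0.17 (adjusted p = 0.0566) and was called in none of the 16 alternatives.

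IER3, a short protein that favours survival of stressed cells and prolongs ERK activity, had 132 and 135 FPKM in K178R, 184 and 173 FPKM in wild type, and 128 and 133 FPKM in control. The wild type libraries stood apart, and K178R and control overlapped. IER3 rose with wild type TEAD4 (log2 0.45, SE 0.03, adjusted p = 9.96e-05), and K178R was lower than wild type (log2 -0.42, SE 0.03, adjusted p = 2.1e-04). K178R against control gave log2 0.03 (95% interval -0.05 to 0.11, adjusted p = 0.573). The rises of ATF3 and IER3 with wild type TEAD4 and their lower values in K178R held in all 16 alternatives. IER3 shares 359 exonic bases with the antisense RNA IER3-AS1.

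Several heat shock genes, which rise when proteins misfold, also had their highest level in the wild type line. HSPA1B had 36.7 ± 0.956 FPKM in K178R, 65.4 ± 0.310 FPKM in wild type and 48.5 ± 0.949 FPKM in control, a value that is uncertain because HSPA1A is a near-identical copy. The co-chaperone BAG3 had 26.1 ± 1.72, 34.9 ± 0.362 and 27.0 ± 0.955 FPKM (SD, n = 2 each). HSPB1 went the other way and was lowest in the wild type line. Its means were 181.8, 159.6 and 247.7 FPKM in K178R, wild type and control. Its fall in wild type against control (log2 -0.63, adjusted p = 1.3e-04 by limma) was the largest change of the list in that comparison. Of 8 tested heat shock genes, 1 was higher and 4 lower in K178R cells than in wild type, 4 were higher and 2 lower in wild type than in control, and 0 were higher and 5 lower in K178R than in control. At an unadjusted p under 0.05, limma also gave 0 higher in K178R than in control. Their median log2 changes were -0.31, 0.125 and -0.142 in these comparisons, beside -0.0838, 0.0926 and 0.00246 over all genes. The shares of all genes called higher and lower were 10.4% and 34.5%, 37.6% and 12.2%, and 11.7% and 11.1% in the same order. The call of the 1 higher gene, HSPB1, ended without wild type replicate 1 or K178R replicate 2, and the 5 lower became 3 without K178R replicate 2 or control replicate 1. After either scaling, 2 were higher in K178R than in wild type, and wild type had 3 higher and 3 lower than control. The part of these heat shock genes in the results for JUN, ATF3 and IER3 was not tested.

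Markers of other cells moved with these lines at low levels. The 6 fibroblast markers summed to 1.73 to 1.88 FPKM in K178R, 3.64 to 3.78 FPKM in wild type and 1.53 to 1.76 FPKM in control, almost all of it COL1A1, with COL1A2, DCN and LUM listed at 0 throughout. The 6 leukocyte markers summed to 1.21 to 1.31, 2.90 to 3.18 and 3.14 to 3.60 FPKM, mostly CD68, with CD3E listed at 0. Of these lists 1 gene each reached the filter: COL1A1 was lower in K178R cells than in wild type (log2 -0.77) and higher in wild type than in control (log2 0.82), and CD68 was lower in K178R cells than in wild type (log2 -0.79) and than in control (log2 -0.95). The 4 endothelial markers were under the filter in every library. Of 6 tested colon epithelium markers, 3 were higher and 1 lower in K178R cells than in wild type, and 1 was higher and 3 lower in wild type than in control. K178R against control had 3 higher and 1 lower, and 1 higher without any 1 of the K178R or control libraries. Of all genes, 10.4% were called higher and 34.5% lower in K178R against wild type. Wild type against control had 37.6% and 12.2%, and K178R against control had 11.7% and 11.1%. The part of these markers in the results was not tested.

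The genes most like each of the 10 over the 6 libraries were named by the Euclidean distance of centred log2(FPKM + 1), where 0 is an identical pattern. EGR1 had the most distant nearest genes of the 10: GPRC5A (0.221), the coagulation initiator F3 (0.23) and DOCK5 (0.254) were nearest. F3 had 61.01, 30.2 and 27.6 FPKM in K178R, wild type and control. For ATF3 the nearest were EGLN3 (0.0353), TTC39A (0.0431) and CYB5A (0.0561), for JUN they were PNKD (0.0512), PITPNM1 (0.054) and PLD3 (0.0563), and for IER3 PPM1M (0.0467), C5orf24 (0.0542) and WDR63 (0.0601). FOSL1 was nearest to ADAM9 (0.0935), RAD23B (0.0983) and SEMA7A (0.105), and JUND to RPP25 (0.0605), ENDOV (0.0904) and CDA (0.113). FOS was nearest to VSIR (0.138) and EGR3 to ZNF704 (0.0728), whereas FOSB was nearest to FBXO25 (0.101) and JUNB to PDE3B (0.0339).

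Other basic leucine zipper genes, whose proteins pair with Fos or Jun, had FOSL2 and ATF2 among those that changed. Of 9 tested, 2 were higher and 4 lower in K178R cells than in wild type, 4 were higher and 0 lower in wild type than in control, and 2 were higher and 1 lower in K178R than in control. At an unadjusted p under 0.05, limma gave 1 lower in wild type than in control, where 0 passed after adjustment. BATF2, among the 4 lower in K178R and the 4 higher with wild type, reached the filter only in the wild type libraries (0.782 and 0.745 FPKM). Its place in both counts is therefore partly built into its being tested. The medians in these comparisons were -0.178, 0.185 and 0.141, beside -0.0838, 0.0926 and 0.00246 over all genes. Of all genes, 10.4% were called higher and 34.5% lower in K178R against wild type. Wild type against control had 37.6% and 12.2%, and K178R against control had 11.7% and 11.1%. FOSL2, the remaining Fos family gene, had 4.24 ± 0.0763 FPKM in K178R, 5.73 ± 0.180 FPKM in wild type and 5.67 ± 0.123 FPKM in control, and fell in K178R against wild type (log2 -0.36) and against control (log2 -0.35). ATF2, a Jun partner at cAMP response elements, rose with wild type TEAD4 (6.58 ± 0.162 against 4.89 ± 0.194 FPKM in control, log2 0.37). The 4 lower in K178R became 2 without K178R replicate 1 or without either wild type library, and the 2 higher became 1 without K178R replicate 2 or wild type replicate 1. The 4 higher with wild type became 2 without wild type replicate 2 and 2, with 2 lower, after either scaling. The 2 higher in K178R against control became 1 without any 1 of these 4 libraries, and the 1 lower became 2 after either scaling.

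Other immediate early genes were called in both directions. Of 28 tested, 14 were higher and 3 lower in wild type than in control, 3 were higher and 8 lower in K178R cells than in wild type, and 10 were higher and 6 lower in K178R than in control. Their median log2 change was 0.183 in wild type against control, -0.105 in K178R against wild type and 0.0289 in K178R against control. Over all genes these medians were 0.0926, -0.0838 and 0.00246. The shares of all genes called higher and lower were 37.6% and 12.2%, 10.4% and 34.5%, and 11.7% and 11.1% in the same order. BTG2, an antiproliferative gene also induced by p53, had 9.94 ± 0.299 FPKM in K178R, 21.9 ± 1.22 FPKM in wild type and 13.3 ± 0.733 FPKM in control (SD, n = 2 each), and was called lower in K178R than in either. NFKBIZ, a regulator of NF-kB target genes, had 1.04 ± 0.280, 2.55 ± 0.114 and 1.13 ± 0.0197 FPKM in the same order. NR4A1, an orphan nuclear receptor, had the order of lines of EGR1, with 4.68 ± 0.0107 FPKM in K178R, 3.87 ± 0.0495 FPKM in wild type and 2.59 ± 0.0729 FPKM in control, and all 3 of its comparisons were called. HBEGF, a ligand of the EGF receptor, differed little between the TEAD4 lines and was higher in both than in control (4.68 ± 0.00856 and 4.70 ± 0.521 FPKM, against 2.56 ± 0.0789 FPKM in control). KLF4, a zinc finger factor, fell with K178R (2.47 ± 0.116 FPKM, against 4.90 ± 0.412 FPKM in wild type and 5.58 ± 0.693 FPKM in control). NR4A3, counted as higher than control in both TEAD4 lines, was under the filter in both control libraries (0.172 and 0.156 FPKM). Its rise is therefore partly built into its being tested. The count of genes higher in K178R than in wild type was 6 after either scaling, the 3 lower with wild type became 6 after upper-quartile scaling, and the 10 higher in K178R than in control became 6 without K178R replicate 2 or control replicate 2.

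Among genes that ERK signalling induces to restrain itself, and ETS factors it induces, the largest changes were in DUSP6, DUSP4 and ETV1. Of 9 tested, 7 were higher and 2 lower in wild type than in control, 5 were higher and 2 lower in K178R than in control, and 2 were higher and 3 lower in K178R cells than in wild type. The medians were 0.282, 0.35 and -0.0916 in the same order, against 0.0926, 0.00246 and -0.0838 over all genes. The shares of all genes called higher and lower were 37.6% and 12.2%, 11.7% and 11.1%, and 10.4% and 34.5%. DUSP6, a phosphatase of ERK, had 64.0 ± 3.58 FPKM in K178R, 48.9 ± 0.485 FPKM in wild type and 21.2 ± 0.391 FPKM in control, the order of EGR1 (log2 1.55 for K178R and 1.17 for wild type against control). DUSP4, a nuclear MAP kinase phosphatase, had 12.3 ± 0.162, 22.7 ± 0.345 and 8.78 ± 0.0685 FPKM, with wild type highest as for JUN and ATF3. ETV1, an ETS factor, fell in both lines, with 1.29 ± 0.0212, 2.68 ± 0.0169 and 4.17 ± 0.126 FPKM. The 2 lower in K178R than in control became 1 without any 1 library. The 2 higher in K178R than in wild type became 1 without K178R replicate 1 or without either wild type library.

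Within the MAP kinase cascade, 1 of 19 tested genes was higher and 3 lower in K178R cells than in wild type, 5 were higher and 1 lower in wild type than in control, and 4 were higher and 1 lower in K178R than in control. The medians, -0.0291, 0.0527 and 0.0236, were close to those of all genes. Across all genes the shares called higher and lower were 10.4% and 34.5%, 37.6% and 12.2%, and 11.7% and 11.1% in the same order. RPS6KA5, which encodes MSK1, the kinase that phosphorylates CREB and histone H3 at immediate early genes, had 6.52 ± 0.286 FPKM in K178R, 3.95 ± 0.186 FPKM in wild type and 2.16 ± 0.0923 FPKM in control (SD, n = 2 each). It was higher in K178R than in wild type (log2 0.60) and rose against control with K178R (log2 1.25) and with wild type (log2 0.65). MAPK3, the kinase ERK1, was highest in wild type, at 15.3 ± 0.533 FPKM, against 11.9 ± 0.0562 FPKM in K178R and 12.3 ± 0.0249 FPKM in control. The 1 higher and 3 lower became 3 and 1 after either scaling, and the 3 lower became 1 without wild type replicate 1. The 4 higher in K178R than in control became 2 without K178R replicate 1 or control replicate 2, and the 1 lower with wild type became 2 with median-of-ratios and 3 with upper-quartile scaling.

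Serum response factor, ternary complex factors and CREB proteins carry MAP kinase signals to these promoters. SRF had 15.3 ± 1.05 FPKM in K178R, 15.4 ± 0.224 FPKM in wild type and 15.5 ± 0.640 FPKM in control, was not called, and had overlapping libraries in all comparisons. Of 11 genes of this list, 2 were higher and 2 lower in K178R cells than in wild type, 3 were higher and 2 lower in wild type than in control, and 1 was higher and 0 lower in K178R than in control. At an unadjusted p under 0.05, limma also gave 0 lower in K178R than in control. The medians were -0.0362, 0.0357 and -0.000443. Among all genes the shares called higher and lower were 10.4% and 34.5%, 37.6% and 12.2%, and 11.7% and 11.1% in the same order. ELK3, an ETS factor that binds with SRF, had 12.6 ± 0.110 FPKM in K178R, 19.4 ± 0.311 FPKM in wild type and 9.64 ± 0.126 FPKM in control, and differed in all 3 comparisons. The 2 and 2 became 1 and 1 without K178R replicate 1 or wild type replicate 1, and the 2 lower became 1 without wild type replicate 2 and after either scaling.

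**Figure D4:**
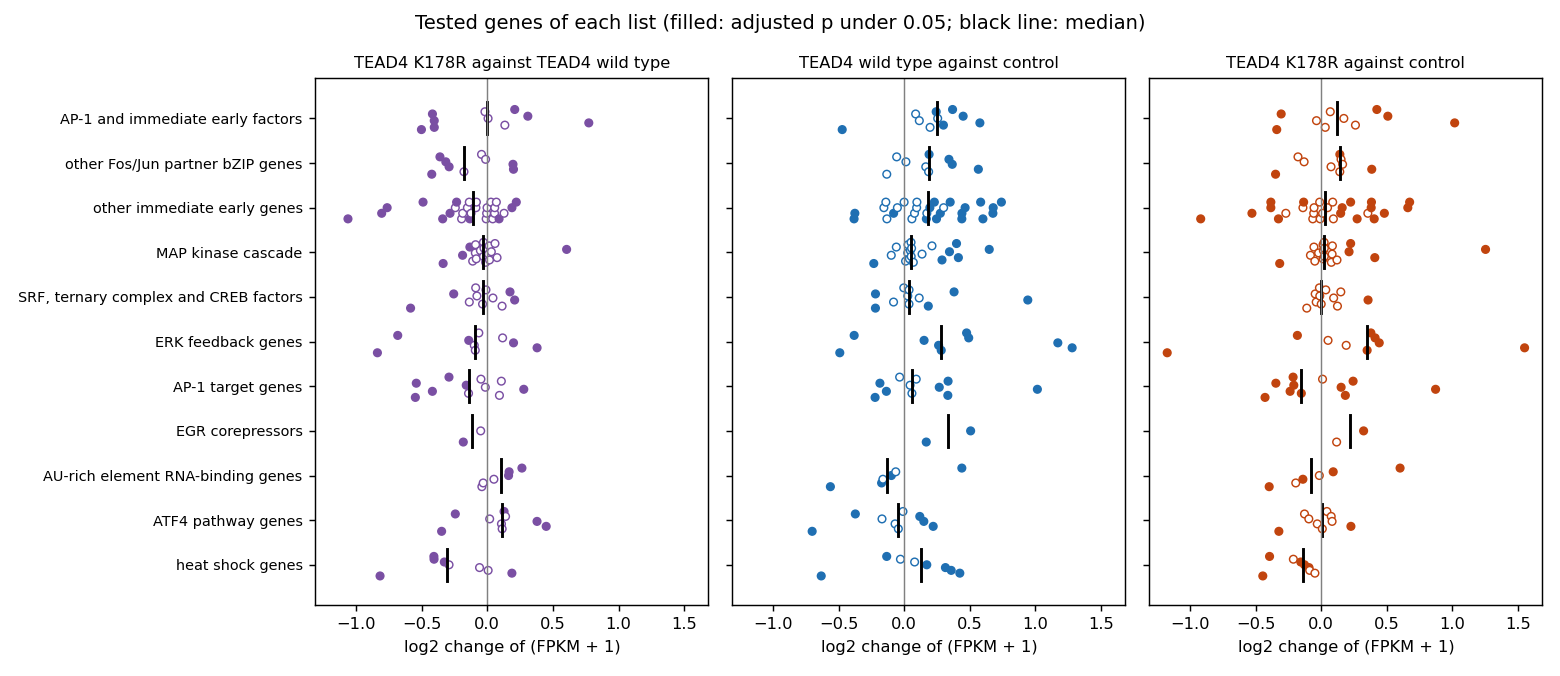
Log2 change of FPKM + 1 of the AP-1 and immediate early factors and of every tested gene in 10 other lists (rows) for 3 comparisons (panels). Filled points passed adjusted p under 0.05 and the black line is the row's median. In K178R against control the ERK feedback genes reach from ETV1 at -1.17 to DUSP6 at 1.55, and the 10 AP-1 and immediate early factors lie on both sides of 0 in each panel.

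Genes known as AP-1 targets in other cells divided between directions. Of 11 tested, 1 was higher and 5 lower in K178R cells than in wild type, 4 were higher and 3 lower in wild type than in control, and 4 were higher and 6 lower in K178R than in control. The medians were -0.143, 0.0582 and -0.152 in these comparisons, the last against 0.00246 over all genes. In the same order, 10.4% of all genes were called higher and 34.5% lower, then 37.6% and 12.2%, then 11.7% and 11.1%. PLAU, the urokinase, had 3.35 ± 0.0646 FPKM in K178R, 5.36 ± 0.0833 FPKM in wild type and 4.05 ± 0.0305 FPKM in control, and the cytokine LIF had 4.23 ± 0.322, 6.60 ± 0.0173 and 5.04 ± 0.176 FPKM. Both rose with wild type TEAD4 and were lower in K178R cells than in wild type. Of the 8 not tested, 6 were matrix metalloproteinases. In K178R against wild type, median-of-ratios scaling gave 3 higher and 4 lower, and upper-quartile scaling gave 4 of each. The 4 higher in K178R than in control became 2 without either K178R library or control replicate 2, and the 6 lower became 3 without either control library.

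Among 6 genes for proteins that bind AU-rich elements, the decay signals of short-lived transcripts such as FOS, 3 were higher and 0 lower in K178R cells than in wild type, 1 was higher and 3 lower in wild type than in control, and 2 were higher and 2 lower in K178R than in control. The count of lower genes in K178R against wild type was also 0 by limma at an unadjusted p under 0.05. The medians were 0.106, -0.131 and -0.0774. Shares called higher and lower over all genes were 10.4% and 34.5%, 37.6% and 12.2%, and 11.7% and 11.1% in the same order. ZFP36L1, which promotes decay, rose in both lines (87.5 ± 0.677 FPKM in K178R and 78.2 ± 2.57 FPKM in wild type, against 57.4 ± 0.766 FPKM in control), and its relative ZFP36L2 fell (20.4 ± 0.826 and 18.1 ± 0.476, against 27.2 ± 0.881 FPKM). The 3 lower in wild type became 5 after either scaling, and the 2 higher in K178R than in control became 1 after either scaling and without any 1 of the K178R or control libraries. The 2 lower became 1 without K178R replicate 1 or control replicate 2.

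Of 9 genes of the ATF4 pathway, the amino acid and stress response in which ATF3 takes part, 3 were higher and 2 lower in K178R cells than in wild type, 3 were higher and 2 lower in wild type than in control, and 1 was higher and 1 lower in K178R than in control. The medians were 0.113, -0.0453 and 0.00803. Over all genes the shares called higher and lower were 10.4% and 34.5%, 37.6% and 12.2%, and 11.7% and 11.1% in the same order. ATF5 had 14.8 ± 0.325 FPKM in K178R, 11.1 ± 0.867 FPKM in wild type and 18.7 ± 0.648 FPKM in control, and the glutathione-degrading enzyme CHAC1 had 1.57 ± 0.171, 0.881 ± 0.0761 and 1.44 ± 0.114 FPKM. Both were lowest in the wild type line, in which ATF3 was highest. Other genes of the list were highest in wild type, like ATF3, but unlike ATF3 had a lower mean in K178R than in control. SESN2 had 6.93 ± 0.367, 9.09 ± 0.238 and 7.66 ± 0.278 FPKM in K178R, wild type and control. DDIT4 had 21.5 ± 0.338, 25.7 ± 2.14 and 23.1 ± 0.0945 FPKM. Both were among the genes called lower in K178R than in wild type and higher in wild type than in control. The 3 higher with wild type became 0, with 6 lower, after either scaling. They were also 0 when control replicate 1 or wild type replicate 2 was left out, and 1 without control replicate 2. The 3 higher in K178R than in wild type became 7 after either scaling, and the 2 lower became 1 after upper-quartile scaling.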

How the data were processed

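The authors deposited 1 table of FPKM values per library, 20030 gene rows each. The submitters' processing notes name Bowtie 0.12.2 and hg18. How FPKM was computed, with which annotation, and how strand and multiply matching reads were handled is not given in the sources used here. Rows with a repeated identifier (4) were dropped. The 11445 genes that reached 0.5 FPKM in 2 or more libraries were tested on log2(FPKM + 1), a scale that understates changes of low genes. All 6 libraries entered 1 fit of limma 3.58.1 (R 4.3.3) with its trend option and 3 group means, two-sided contrasts and Benjamini-Hochberg adjustment over all genes tested (threshold 0.05). The fit was tested on simulated data. FPKM are not counts, so no count test was used, and the precision that depth gives is unknown. Groups and replicate numbers come from the titles. Promoters are RefSeq's (GRCh38.p14) and overlaps GENCODE release 29's.

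The members and lists were chosen with earlier results of these data known. Named were the members, TEAD4, the 3 called genes of each list and comparison with the largest change, and the nearest genes by Euclidean distance. EPCAM, SRF, COL1A1, CD68, KRT8, KRT18, CDX2, DDIT4 and NR4A3 were named after their values were seen. Alternatives covered pseudocount, filter, scaling, samples fitted, averaged control libraries, replicate block, trend and leaving out each library.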

Additional observations from a re-analysis of the deposited data

Results flagged for a closer look

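The change of the K178R line against control differed from that of the wild type line in 7 of the 10 genes. The test was limma's for K178R against wild type, which is the difference of both changes because control is shared. The log2 difference, K178R minus wild type, was 0.77 for EGR1 (adjusted p = 1.5e-04), 0.31 for FOS (adjusted p = 0.0413) and 0.21 for EGR3 (adjusted p = 0.0419). It was -0.40 for JUN (adjusted p = 0.00185), -0.50 for JUND (adjusted p = 0.00174), -0.40 for ATF3 (adjusted p = 0.00113) and -0.42 for IER3 (adjusted p = 2.1e-04). Of all genes tested, 10.4% were called higher and 34.5% lower in this comparison.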

How the results depend on the processing

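Over 3 comparisons and all alternatives, the members' log2 changes kept direction and call in 420 cases, lost a call in 36, gained one in 12 and changed sign in 9. The calls of IER3, ATF3 and JUN in wild type against control and in K178R against wild type, of FOSL1 against control in both lines, of JUND in K178R against wild type and of EGR1 in both K178R comparisons held in every alternative. The 3 members higher in K178R than in wild type became 1 with only those groups fitted, with the control libraries averaged and with the replicate block, and 1 to 3 with 1 library left out. The 2 lower in K178R than in control became 1 without the filter, without trend and with the control libraries averaged, and 1 to 2 with 1 library left out. The cause was not tested. Signs turned only in values that were not called. JUNB in K178R against wild type was 0.066 with median-of-ratios and 0.071 with upper-quartile scaling, and -0.058 to 0.023 with 1 library left out. JUNB in wild type against control was -0.0028 and -0.018 after these scalings. With 1 library left out, FOSB in K178R against wild type ranged from -0.15 to 0.17, FOS in wild type against control from -0.033 to 0.26, and JUN in K178R against control from -0.095 to 0.022. EGR3 could not be tested at a filter of 1 FPKM.

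Libraries with the same replicate number did not deviate together. Pearson's r across genes was 0.0323 for K178R and wild type, 0.0154 for wild type and control, and -0.0311 for K178R and control. Whether they share a culture or a day is not given by the labels, and these values cannot settle it. Of the 84 counts of calls over the lists, those that moved by more than 1.5 times numbered 19 after median-of-ratios and 21 after upper-quartile scaling, 7 to 13 with 1 library left out, 10 without the filter, 10 without trend, 9 with control averaged, and 1 or 2 in each of the others. Where a library left out leaves 1 in a line, that library is assumed to vary like the rest. The number of reads is unknown, which limits most what can be said of FOS, FOSB and EGR3.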
